A study of Mus musculus with 6 samples.

Results

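Transcript levels of 8 transforming growth factor beta (Tgf-beta) genes, of 18194 measured, were followed in cultures of mouse spermatogonial stem cells on feeder cells. Signalling itself was not measured. The 8 genes were chosen by name: the ligands Tgfb1, Tgfb2, Tgfb3 and Inhba, the receptors Tgfbr1, Tgfbr2 and Tgfbr3, and the target gene Tgfbi. Together they had 21 of the 45101 probe sets of the array. A probe set is a group of short probes read out as 1 value. The probe set with the highest mean over the 6 arrays stood for its gene, and the others are described beside it.

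Tgf-beta ligands are secreted in a latent form, held in the matrix by binding proteins, and act once they are released. The free dimer binds the type II receptor kinase Tgfbr2, which recruits and phosphorylates the type I receptor kinase Tgfbr1. That kinase in turn activates Smad2 and Smad3, which enter the nucleus with Smad4. Betaglycan, the product of Tgfbr3, presents ligand and is needed above all for Tgf-beta 2. Activins, the dimers of the Inhba product, use other receptors of the family but the same Smads. In the testis these factors come mainly from the somatic cells around the germ cells, and fibroblasts are a classical cell type that answers to them.

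The cells came from testes of male ICR mice aged 3 to 5 days, with no genetic change or drug treatment named. The arrays cover 3 culture states: germ-line stem cells that the labels call unipotent (SSC), cells called intermediate (iSSC) and cells called multipotent (mSSC). All were carried on feeder layers of mouse embryonic fibroblasts stopped from dividing with mitomycin in serum-free germ stem cell medium, and flattened or ES-like colonies stayed in it or moved to a serum-free KSR-mES medium. Clumps put on feeders came from passages 0 to 1 and 9 to 10. The sources used here do not give the passage or medium of an array. Each state had 2 arrays, so each mean ± SD below has n = 2, and this small number limits the precision. Whether the replicates came from separate cultures or mice is not stated in the labels, and the p-values thus cover only the spread of these samples, which may be technical.

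The array medians lay between 5.83 and 5.93 on the log2 scale. The 12 pluripotent cell markers had medians of 5.18 to 5.84 in the SSC and iSSC arrays and of 11.72 and 11.88 in the mSSC arrays. The 12 germ line markers had medians of 10.61 to 10.96 in SSC and iSSC and of 8.30 and 8.10 in mSSC. The medians of fibroblast and macrophage markers were highest in SSC and lowest in mSSC, where those of macrophages lay below the array medians. Values this low do not show that such cells were present. The 19 measured fibroblast markers had medians of 11.92 and 10.70 in the SSC arrays, 9.66 and 10.18 in iSSC, and 7.32 and 8.70 in mSSC, and the 15 macrophage markers 11.56 and 10.90, 9.19 and 8.68, and 4.94 and 5.18. The transferrin receptor control gave 2.55 more signal (log2) at its 3' than at its 5' end in SSC replicate 1 and 1.12 to 2.07 more elsewhere. For the pyruvate carboxylase control the excess was 2.73 in SSC replicate 1 and 0.88 to 1.32 elsewhere. A level below 4.31, the lower quartile of all values, is called near background.

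The stretches upstream of 3 members are shown because these genes were called in different steps: Tgfbr1 between SSC and iSSC, and Tgfb1 and Tgfbr2 between iSSC and mSSC. Whether their courses differ from each other was not tested. They are the 250 bases before the annotated start in the mouse assembly GRCm38.p6, from RefSeq, read along the gene's strand, and capitals mark a GC box (GGGCGG, or CCGCCC where it lies on the other strand), the kind of site that Sp1 binds.
Tgfb1, chr7:25686752-25687001, + strand: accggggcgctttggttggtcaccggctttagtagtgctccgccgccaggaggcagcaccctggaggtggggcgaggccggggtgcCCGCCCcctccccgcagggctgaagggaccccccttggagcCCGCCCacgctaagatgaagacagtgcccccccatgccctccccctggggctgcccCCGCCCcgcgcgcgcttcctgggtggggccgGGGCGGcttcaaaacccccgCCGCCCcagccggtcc
Tgfbr1, chr4:47352972-47353221, + strand: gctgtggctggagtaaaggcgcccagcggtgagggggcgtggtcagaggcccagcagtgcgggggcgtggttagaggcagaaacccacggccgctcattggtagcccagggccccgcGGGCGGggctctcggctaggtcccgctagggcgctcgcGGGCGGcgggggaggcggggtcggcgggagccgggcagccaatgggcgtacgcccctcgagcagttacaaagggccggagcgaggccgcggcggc
Tgfbr2, chr9:116175364-116175613, - strand: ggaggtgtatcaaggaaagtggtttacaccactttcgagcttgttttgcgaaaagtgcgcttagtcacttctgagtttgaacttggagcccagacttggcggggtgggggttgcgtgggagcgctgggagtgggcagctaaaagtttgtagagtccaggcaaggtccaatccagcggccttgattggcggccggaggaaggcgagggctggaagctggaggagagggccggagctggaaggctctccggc
The Tgfb1 stretch held 5 GC boxes and the Tgfbr1 stretch 2, whereas the Tgfbr2 stretch held none of the 5 motifs searched. Their GC contents were 75.2%, 74.8% and 58.4%, against a median of 52.4% over all 32851 promoters in the table. Of those promoters 32.7% held a GC box, 12.4% a TATA box (TATAAA), 4.46% an AP-1 site (TGAGTCA), 1.55% a cyclic AMP response element (TGACGTCA) and 0.167% a palindromic Smad site (GTCTAGAC), searched on both strands. The capitals overlap with no other motif. The Tgfbi stretch, chr13:56609336-56609585, held 1 GC box. A TATA box lay 31 to 26 bases before the annotated start of Tgfb2 and 91 to 86 bases before that of Inhba. Both of these windows, like that of another Tgfbr1 start, lie inside the annotated span of the gene and are not printed. RefSeq entries were matched for 6 of the 8 members, all but Tgfb3 and Tgfbr3. A match of letters is a description and not a site that was shown to be bound.

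The comparison of mSSC with SSC asks how the multipotent state differs from the germ-line state. Tgf-beta genes were lower in mSSC: 7 of the 8 members fell and Inhba did not pass the test. The receptor gene Tgfbr2 fell most, by 4.39 ± 0.74 on the log2 scale (a 20.9-fold drop), followed by the ligand gene Tgfb3 with a drop of 3.18 ± 0.46 (9.06-fold). The Tgfbr2 drop was 9.16-fold without mSSC replicate 1 and 47.9-fold without mSSC replicate 2, and its second-ranked probe set was at -1.02 and not called. The Tgfb3 drop was 5.59-fold and 14.7-fold without the same arrays. All differences are given as the difference of group means ± SE from limma, and called means an adjusted p below 0.05 after Benjamini-Hochberg adjustment across the 18194 genes. Of all genes 10.6% were called lower in this comparison, 8.22% higher and 18.8% in either direction. Of these calls 43.6% were higher, and 53.0% were with arrays centred on their 75th percentile. The median difference of the members was -2.28, against 0.08 over all genes. The groups did not overlap, with mSSC lower, in 7 of 8 members and in 26.3% of all genes. The calls of Tgfb1 and Tgfb3 held with any 1 array left out. Without SSC replicate 1 only these, Tgfb2 and Tgfbr1 were called. The call of Tgfbi was also lost without either iSSC array, that of Tgfbr3 without any array except mSSC replicate 2, that of Tgfb2 without mSSC replicate 1 and that of Tgfbr1 without mSSC replicate 2. Leaving out either iSSC array gives the same fit here as only the 4 arrays compared, with unchanged differences. Those losses reflect the smaller basis for the spread and not the values of a given iSSC array.

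**Figure D1:**
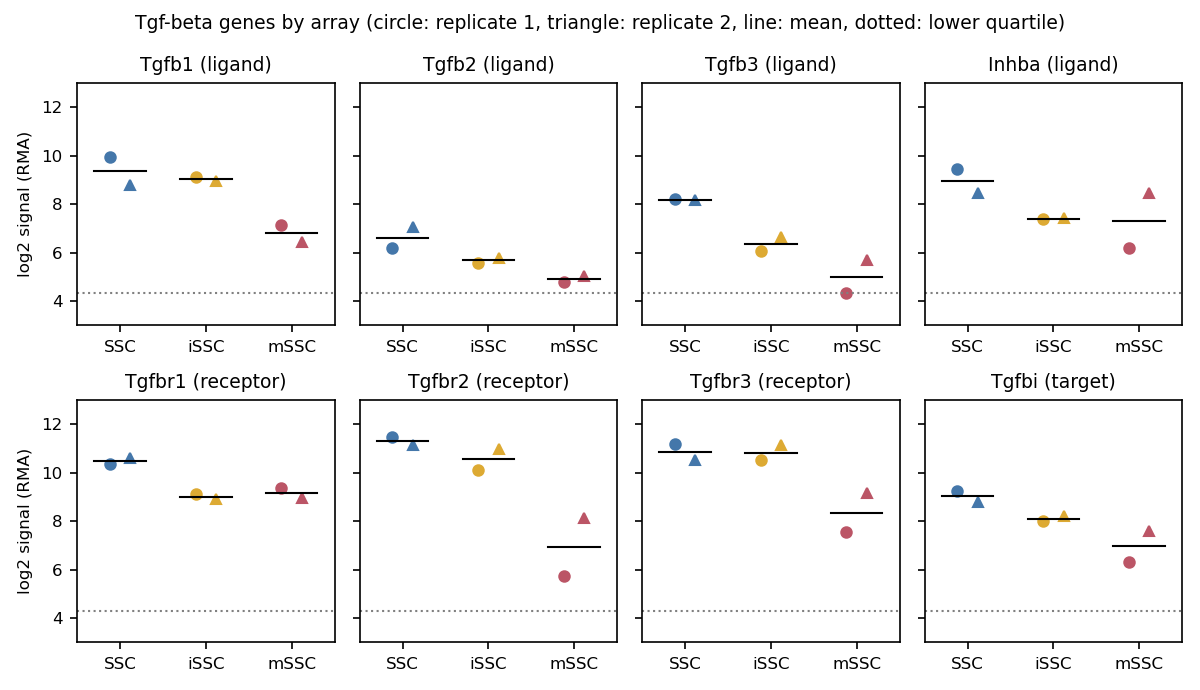
Log2 signal of the 8 members on each array, with the 3 states along the horizontal axis, a circle for replicate 1, a triangle for replicate 2 and a line at the mean of 2 arrays. The dotted line is the lower quartile of all values, 4.31, which Tgfb3 touches in mSSC replicate 1, and mSSC lies below SSC in every panel except that of Inhba, where mSSC replicate 2 reaches 8.47.

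Among the ligands, Tgfb1, the form made by most cell types and by macrophages in particular, read 9.94 and 8.79 in the SSC arrays, 9.11 and 8.93 in iSSC, and 7.15 and 6.45 in mSSC. Both mSSC arrays lay below all the others, and the iSSC arrays lay within the SSC range. The means were 9.36 ± 0.81 (SD) in SSC, 9.02 ± 0.12 in iSSC and 6.80 ± 0.49 in mSSC. Tgfb1 fell by 2.57 ± 0.42 between SSC and mSSC (limma adjusted p = 0.011), a 5.92-fold drop.

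Tgfb2, which acts in embryonic patterning and depends on betaglycan, read 6.18 and 7.05 in SSC, 5.57 and 5.78 in iSSC, and 4.80 and 5.02 in mSSC. The 3 states followed each other without overlap, from SSC at the top to mSSC. Its fall between SSC and mSSC was 1.71 ± 0.32 (limma adjusted p = 0.017), or 3.26-fold. Each smaller step missed the threshold, at -0.94 ± 0.32 between SSC and iSSC (limma adjusted p = 0.22) and at -0.76 ± 0.32 between iSSC and mSSC (limma adjusted p = 0.17).

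Tgfb3, a ligand linked to palate fusion and to loosening of the junctions between Sertoli cells, read 8.23 and 8.15 in SSC, 6.06 and 6.64 in iSSC, and 4.31 and 5.70 in mSSC. The SSC arrays differed by only 0.08 and stood well above the rest, and mSSC replicate 1 was at the level of the lower quartile of the array. The fall from SSC to mSSC was called (limma adjusted p = 0.0078), while the step to iSSC was -1.84 ± 0.46 (limma adjusted p = 0.12) and that from iSSC to mSSC -1.34 ± 0.46 (limma adjusted p = 0.10). The 9.06-fold drop therefore includes 1 array at background level.

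Inhba, whose product dimerises to activin A, read 9.44 and 8.45 in SSC, 7.38 and 7.42 in iSSC, and 6.18 and 8.47 in mSSC. The mSSC arrays lay on either side of the iSSC pair, and mSSC replicate 2 was within the SSC range. Inhba was at -1.62 ± 0.72 in mSSC against SSC (limma adjusted p = 0.18) and at -1.54 ± 0.72 in iSSC against SSC (limma adjusted p = 0.35). The SD of 1.62 between the mSSC arrays was as large as the difference. Without mSSC replicate 2 Inhba was called lower than in SSC, at -2.77.

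The signalling receptors Tgfbr1 and Tgfbr2 work as 1 complex. Tgfbr2, the ligand-binding kinase, read 11.47 and 11.16 in SSC, 10.10 and 11.00 in iSSC, and 5.73 and 8.12 in mSSC. The iSSC arrays lay just below the SSC pair, at a difference of -0.76 ± 0.74 (limma adjusted p = 0.68). Both mSSC arrays were far lower and differed from each other by 2.39. It fell by 3.63 ± 0.74 between iSSC and mSSC (limma adjusted p = 0.022), or 12.4-fold.

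Tgfbr1, the kinase that phosphorylates the Smads, read 10.38 and 10.64 in SSC, 9.11 and 8.93 in iSSC, and 9.36 and 8.98 in mSSC. The SSC arrays stood above the other 4, and the iSSC and mSSC arrays overlapped. Tgfbr1 fell by 1.49 ± 0.24 between SSC and iSSC (limma adjusted p = 0.040), or 2.81-fold, and by 1.34 ± 0.24 between SSC and mSSC (limma adjusted p = 0.014). The difference between mSSC and iSSC was 0.15 ± 0.24 (limma adjusted p = 0.74).

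Tgfbr3, the co-receptor betaglycan, also binds inhibin and is abundant in gonadal somatic cells. It read 11.18 and 10.53 in SSC, 10.52 and 11.16 in iSSC, and 7.55 and 9.17 in mSSC. The SSC and iSSC arrays covered nearly the same range, with a difference of -0.02 ± 0.55 (limma adjusted p = 0.99), and both mSSC arrays were lower. Tgfbr3 fell by 2.50 ± 0.55 between SSC and mSSC (limma adjusted p = 0.027) and by 2.48 ± 0.55 between iSSC and mSSC (limma adjusted p = 0.029).

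The target gene Tgfbi encodes a matrix protein that binds integrins and is induced by Tgf-beta in many cells. It read 9.27 and 8.81 in SSC, 8.02 and 8.21 in iSSC, and 6.32 and 7.61 in mSSC. In this main probe set the 3 states did not overlap. In the second-ranked one SSC, at 8.28 and 8.67, and iSSC, at 8.22 and 8.79, did overlap. Tgfbi fell by 2.07 ± 0.43 between SSC and mSSC (limma adjusted p = 0.022), or 4.21-fold. The steps on either side of iSSC missed the threshold, at -0.92 ± 0.43 (limma adjusted p = 0.35) and -1.15 ± 0.43 (limma adjusted p = 0.13).

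Setting iSSC against SSC asks how the intermediate cells differ from the germ-line state. Only Tgfbr1 among the 8 members was called, as lower, and 7 did not pass. Of all genes 1.87% were called lower, 0.225% higher and 2.09% in either direction, and with 8 members 1 call is a single gene. All 8 differences were negative, with a median of -0.93 against 0.10 over all genes, and the groups did not overlap in 6 members, against 17.7% of all genes lower without overlap. The sign of Tgfbr3, whose difference was close to 0, turned when the arrays were centred on their median (0.05) or their 75th percentile (0.07). With the second-ranked probe set 5 of the 7 members that have one were positive, Tgfb1 at 0.25, Inhba at 0.49, Tgfbr2 at 0.55, Tgfbr3 at 1.11 and Tgfbi at 0.03, none of them called. Without SSC replicate 1 Tgfb1 was at 0.23 and Tgfbr3 at 0.31. The Tgfbr1 call was lost when either SSC array or either iSSC array was left out. Without either mSSC array Tgfb3 was called too.

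The comparison of mSSC with iSSC asks what changes at the step to multipotency. Tgfb1, Tgfbr2 and Tgfbr3 fell and the other 5 members did not pass the test, where 9.6% of all genes were called lower, 7.53% higher and 17.1% in either direction. Tgfb1 fell by 2.22 ± 0.42 (limma adjusted p = 0.017), or 4.67-fold. The median of the members was -1.24, against -0.01 over all genes, and the groups did not overlap, with mSSC lower, in 6 of 8 members and 33.2% of all genes. No member was called without iSSC replicate 1 or without iSSC replicate 2, when 4 and 3 members had an unadjusted p under 0.05 in limma. The call of Tgfb1 was also lost without mSSC replicate 2 and that of Tgfbr3 without mSSC replicate 1.

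**Figure D2:**
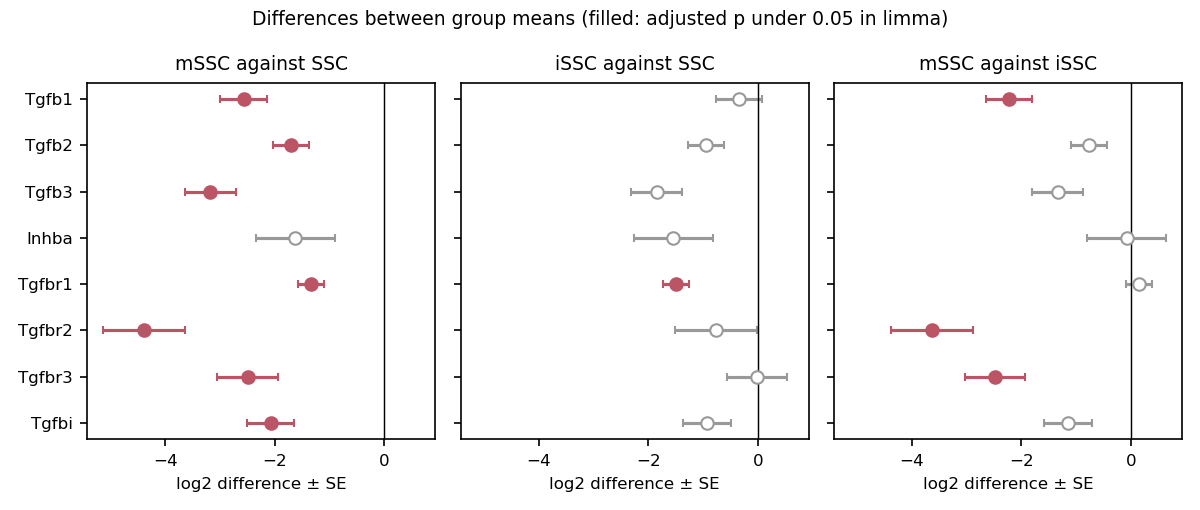
Difference of group means (log2, point) ± SE (bar) of each member in the 3 comparisons, filled red where the adjusted p was under 0.05. Tgfb1, Tgfbr2 and Tgfbr3 are red in both comparisons with mSSC and Tgfbr1 in both comparisons with SSC.

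The members can be ordered by how much of the difference between SSC and mSSC was already present in iSSC. These shares are a description with no test, and the 3 comparisons share arrays. Those of Tgfb1 and Tgfbr3 change sign without SSC replicate 1, so small shares have no order. Tgfbr3 had 0.638% of its difference in iSSC, Tgfb1 13.4% and Tgfbr2 17.3%. Tgfbi had 44.6%, Tgfb2 55.3% and Tgfb3 57.9%. All of these are shares of the main probe sets. The lower-ranked probe sets of Tgfbi had shares of -1.78%, 18.5% and 44.4%, so its place in the order depends on the probe set. Tgfbr1, at 111%, was slightly lower in iSSC than in mSSC, a gap within the spread of the arrays. Inhba had 94.9%, although neither of its differences from SSC was called.

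The members' other probe sets did not all behave like the main ones. With every probe set tested by itself, over 45037 probe sets, 9 of the 21 were called lower in mSSC than in SSC and none higher, where 5.76% of all probe sets were called lower. Between mSSC and iSSC 2 were called lower, the main ones of Tgfb1 and Tgfbr2, against 4.81% of all, and between iSSC and SSC none in limma, against 0.0955%, with 5 at an unadjusted p under 0.05. In the fit of mSSC against SSC the main probe set of Tgfbr3 had an adjusted p of 0.051 in limma. Tgfb2 was called in 3 of 4 probe sets, at -1.71 ± 0.32, -1.82 ± 0.39 and -2.06 ± 0.29, and the other, at 3.58 to 4.04 on every array, was near background. Of the 3 called, those with the larger falls were near background in mSSC, at means of 4.14 and 4.03. All 4 probe sets of Tgfbi had a negative difference, from -1.32 ± 0.34 to -2.36 ± 0.46, and 2 of them were called. The second probe sets of Tgfb1, at 4.07 to 4.47, and Inhba, at 4.45 to 5.16, stayed low on all arrays and showed no called difference.

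For the receptors, the second probe sets set SSC replicate 1 apart. The second Tgfbr1 probe set read 4.34 in SSC replicate 1 and 8.15 in replicate 2, and a further one 3.62 and 7.09, while the main one read 10.38 and 10.64. The second probe set of Tgfbr2 read 6.57 and 8.72, and that of Tgfbr3 5.53 and 7.51. In each case SSC replicate 1 was the lower, whereas in the main probe sets of Tgfbr2 and Tgfbr3 it was the higher. None of these was called in any comparison, and with the second-ranked probe sets only Tgfb2 was called between mSSC and SSC. SSC replicate 1 is also the array with the largest excess of 3' signal in the transferrin receptor, pyruvate carboxylase, actin and Gapdh controls. The part of this in the result was not tested.

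**Figure D3:**
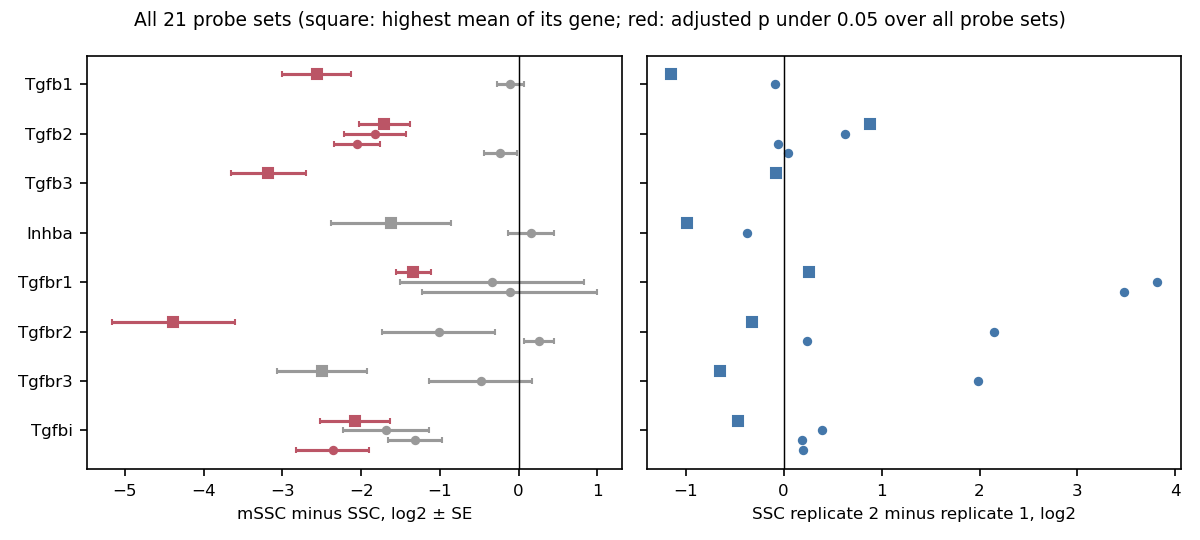
All 21 probe sets of the members, with the main one of each gene as a square and the others as circles below it. The left panel gives mSSC minus SSC (log2 ± SE, red where called over all probe sets) and the right panel SSC replicate 2 minus replicate 1 (log2), where the lower-ranked probe sets of Tgfbr1 reach 3.81 and 3.48.

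The mSSC arrays differed from each other in 5 of the 8 members by more than 1 on the log2 scale, always with replicate 2 higher. Over all genes 4.52% were higher in mSSC replicate 2 by that much. The gap was 2.39 for Tgfbr2, 2.29 for Inhba, 1.62 for Tgfbr3, 1.39 for Tgfb3 and 1.28 for Tgfbi. It was 0.22 for Tgfb2, and Tgfb1 and Tgfbr1 went the other way, at -0.70 and -0.38. Fibroblast markers were also higher in mSSC replicate 2, in 17 of 19 and with a median gap of 1.80, whereas macrophage markers had a median gap of -0.01 and germ line markers one of 0.20.

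**Figure D4:**
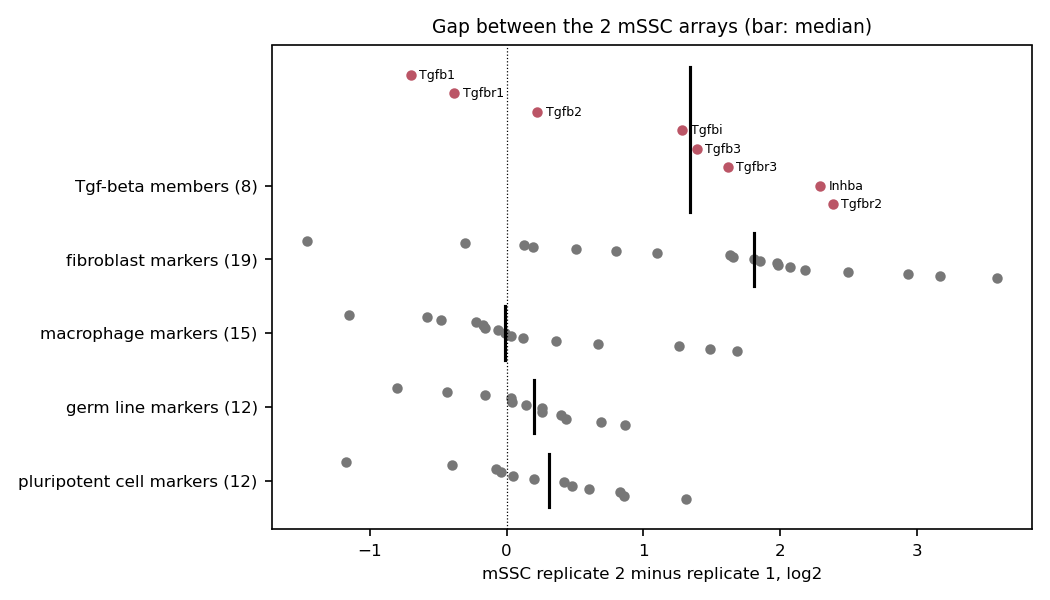
mSSC replicate 2 minus replicate 1 (log2) for each member and for the measured markers of 4 cell types, with a bar at the median and the number of genes in brackets. Tgfbr2 and Inhba have gaps of 2.39 and 2.29, and the median of the fibroblast markers is 1.80.

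The level of markers of other cell types moved with the same groups. In bulk RNA, fewer cells of a type and less RNA per cell cannot be told apart. Between SSC and mSSC 10.6% of all genes were called lower and 8.22% higher. Fibroblast markers fell between SSC and mSSC in 14 of 19, and their linear signals added up to 107000 and 66600 on the SSC arrays, 21700 and 29600 in iSSC, and 9780 and 20200 in mSSC. Fn1, which was not called between SSC and mSSC (-0.63 ± 0.27), weighs most in the mSSC sums, at 12.59 and 12.29. Only Fap was near background, in iSSC and mSSC. Macrophage markers fell in 14 of 15, with summed signals of 64600 and 43000, 21700 and 12500, and 1800 and 3890, and Ptprc and C1qb were near background in mSSC. The mSSC sums come mainly from Laptm5, at 10.02 and 11.27 there, and Cd68, at 8.16 and 9.84. Sertoli cell markers fell in 8 of 11, with sums of 11200 and 14200 in SSC, 3980 and 2090 in iSSC and 1220 and 1070 in mSSC, where Cldn11 was near background. Clu weighs most in these sums, at 13.20 and 13.42 in SSC and 9.41 and 9.14 in mSSC. Peritubular smooth muscle markers fell in 5 of 10, with sums of 25400 and 5850, 4290 and 2560, and 1650 and 1490, and none was near background. Of the 10 differences between SSC and mSSC 6 were negative and 4 positive. Des was among the positive ones, at 7.10 and 6.89 in SSC and 9.38 and 7.91 in mSSC. Acta2, at 13.98 and 11.32, weighs most in the SSC sums. Of 7 endothelial markers 2 rose and none fell, with sums of 419 to 688 in SSC and iSSC and 999 and 1790 in mSSC. Their differences were positive in 5 and negative in 2, Kdr and Emcn. Pecam1 differed most, with 5.39 and 5.70 in SSC and 7.86 and 9.87 in mSSC. Emcn was near background in every state and Cdh5 in SSC. The part of these cells in the falls of the Tgf-beta genes was not tested.

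Of 12 measured genes that hold and release latent Tgf-beta, 4 fell and 1 rose between SSC and mSSC and 7 did not pass, at a median of -1.75. Over all genes 10.6% were called lower and 8.22% higher. The latent Tgf-beta binding protein gene Ltbp1 fell by 2.61 ± 0.43 (limma adjusted p = 0.011), and Ltbp3 and the matrix glycoprotein gene Emilin1 changed by -1.64 ± 0.42 and -2.24 ± 0.50. The integrin subunit gene Itgb8 fell to a level near background, at 3.01 and 3.30 in mSSC. It read 4.57 and 6.09 in SSC, so SSC replicate 1 was itself little above 4.31. In iSSC it was about as low as in mSSC, at 3.07 and 3.37. Ltbp4 went the other way: it read 6.87 and 6.77 in SSC, 7.04 and 7.01 in iSSC, and 9.74 and 10.88 in mSSC, a rise of 3.49 ± 0.37 over SSC (limma adjusted p = 0.0031). Against iSSC, Ltbp1 and Ltbp3 fell and Ltbp4 rose, where 9.6% of all genes were called lower and 7.53% higher. The second-ranked Ltbp1 probe set was at -0.20 against SSC and at 0.29 against iSSC, neither of them called. The calls of Ltbp4 held with any 1 array left out. In iSSC against SSC none of the 12 was called in limma, against 2.09% of all genes, and 2 had an unadjusted p under 0.05. Without mSSC replicate 2 the number called against SSC was 8, and without SSC replicate 1, mSSC replicate 1 or either iSSC array it was 2. Against iSSC the count was 8 without mSSC replicate 2 and 1 without iSSC replicate 2 or mSSC replicate 1.

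Among 6 further activin and inhibin genes, Inha, the alpha subunit of inhibin, fell by 3.38 ± 0.69 between SSC and mSSC (limma adjusted p = 0.021) and Fstl3, which binds and blocks activin, by 1.92 ± 0.20 (limma adjusted p = 0.0028). The others did not pass, among them Inhbb at -2.66 ± 0.78 (limma adjusted p = 0.063). Of all genes 10.6% were called lower in this comparison and 8.22% higher. Fstl3 also fell by 1.00 ± 0.20 against iSSC (limma adjusted p = 0.020). The call of Inha was lost without SSC replicate 2 or either mSSC array, and that of Fstl3 against iSSC without any 1 array of those states, while its call against SSC held with any 1 array left out. In iSSC against SSC none of the 6 was called in limma, against 2.09% of all genes, and 1 had an unadjusted p under 0.05.

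Of 9 other receptors and co-receptors, 2 fell and 7 did not pass between SSC and mSSC, at a median of -0.27. With 9 genes, 2 calls are little apart from the 10.6% of all genes called lower. They were Cd109, a surface protein that binds Tgf-beta (-1.61 ± 0.29, limma adjusted p = 0.015), and the activin receptor gene Acvr2a (-0.88 ± 0.22, limma adjusted p = 0.037). Acvr2a did so only in its main probe set, since the second-ranked one was at 0.04. Against iSSC only Cd109 fell (-2.31 ± 0.29), where 9.6% of all genes were called lower. The call of Cd109 against SSC was lost without mSSC replicate 1, and that of Acvr2a without any array except mSSC replicate 2. In iSSC against SSC none of the 9 was called in limma, against 2.09% of all genes, and 0 had an unadjusted p under 0.05.

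The genes inside the cell showed no common direction. Of 8 Smad genes and partners, Foxh1, a DNA-binding partner of Smad2 in Nodal and activin signalling, rose by 1.53 ± 0.23 in mSSC over SSC (limma adjusted p = 0.0084), and Zfyve9, which brings Smads to the receptor, fell by 1.66 ± 0.39 (limma adjusted p = 0.032). The other 6 did not pass, including Smad3 at -1.12 ± 0.40 (limma adjusted p = 0.10) and Smad2 at -0.90 ± 0.46 (limma adjusted p = 0.24). With 8 genes, 1 call in each direction is little apart from the 10.6% of all genes called lower and 8.22% called higher. Trim33, a ligase that acts on Smad4, was lowest in iSSC: it fell by 1.88 ± 0.24 from SSC (limma adjusted p = 0.029) and was higher in mSSC than in iSSC by 1.81 ± 0.24. Wwtr1 and Foxh1 also rose from iSSC to mSSC, Wwtr1 not in its second-ranked probe set (-0.62). Of all genes 7.53% were called higher in that comparison. The Zfyve9 call was lost without any array except mSSC replicate 2, that of Trim33 between SSC and iSSC without SSC replicate 1 or either iSSC array, and all 3 calls against iSSC without either iSSC array.

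Of 11 inhibitors of the pathway 2 rose, 1 fell and 8 did not pass between SSC and mSSC. With 11 genes, these counts are little apart from the 8.22% of all genes called higher and 10.6% called lower. The corepressor gene Tgif1 read 8.89 and 8.45 in SSC, 10.53 and 10.66 in iSSC, and 11.00 and 11.59 in mSSC. It rose in both states, by 1.93 ± 0.28 in iSSC (limma adjusted p = 0.035) and by 2.63 ± 0.28 in mSSC (limma adjusted p = 0.0031). Smad7, the inhibitory Smad that is itself induced by Tgf-beta, rose by 0.87 ± 0.20 in mSSC (limma adjusted p = 0.031). Smurf1 fell by 1.33 ± 0.34 (limma adjusted p = 0.043), but its second-ranked probe set was at 0.37. Between iSSC and mSSC, Smad6 fell by 2.05 ± 0.26 and Skil rose by 1.70 ± 0.31, and the second-ranked Skil probe set was at -1.40. Of all genes 9.6% were called lower in this comparison and 7.53% higher. Between SSC and mSSC the number called was 1 without SSC replicate 1, mSSC replicate 1 or either iSSC array, and 5 without SSC replicate 2. Tgif1 held against SSC in mSSC with any 1 array left out but not in iSSC, where either SSC or either iSSC array ended its call, and Smad7 lost its call without any 1 of the 6 arrays. Between iSSC and mSSC the count was 5 without either SSC array, 0 without iSSC replicate 1 and 1 without any other array.

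Most genes listed as targets of Tgf-beta were lower in mSSC than in SSC, with 24 negative and 3 positive differences. Of 27 measured, 16 fell, none rose and 11 did not pass, against 10.6% of all genes called lower and 8.22% higher. The median of the 27 was -2.18, against 0.08 over all genes. The largest falls were in Acta2, the smooth muscle actin of myofibroblasts (-4.58 ± 0.85), the cadherin gene Cdh2 (-4.50 ± 0.41) and the collagen gene Col1a1 (-4.48 ± 0.70). Cdkn2b, a cell cycle inhibitor, fell by 2.18 ± 0.35 (limma adjusted p = 0.010), and Snai2 and Zeb1, factors of mesenchymal transition, changed by -2.65 ± 0.51 and -2.03 ± 0.44. Of the 27, 9 are also in a marker list of fibroblasts or peritubular cells, lists whose called genes fell between the same arrays. Among the 16 that fell, these include Acta2, Tagln, Col1a1, Col1a2, Col3a1, Postn and Mmp2. The count dropped to 7 with SSC replicate 1 left out, to 9 with mSSC replicate 1 left out and to 10 with either iSSC array left out. Against iSSC 6 fell, among them Ankrd1 (-3.79 ± 0.64) and Junb (-1.79 ± 0.35), and the count ran from 1 without iSSC replicate 2 to 11 without mSSC replicate 2. In mSSC against iSSC 9.6% of all genes were called lower. In iSSC against SSC none of the 27 was called in limma, against 2.09% of all genes. There 12 had an unadjusted p under 0.05, and Col1a1 was at -3.29 ± 0.70 (limma adjusted p = 0.081). Without either mSSC array 4 were called there, and without SSC replicate 2 it was 2.

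**Figure D5:**
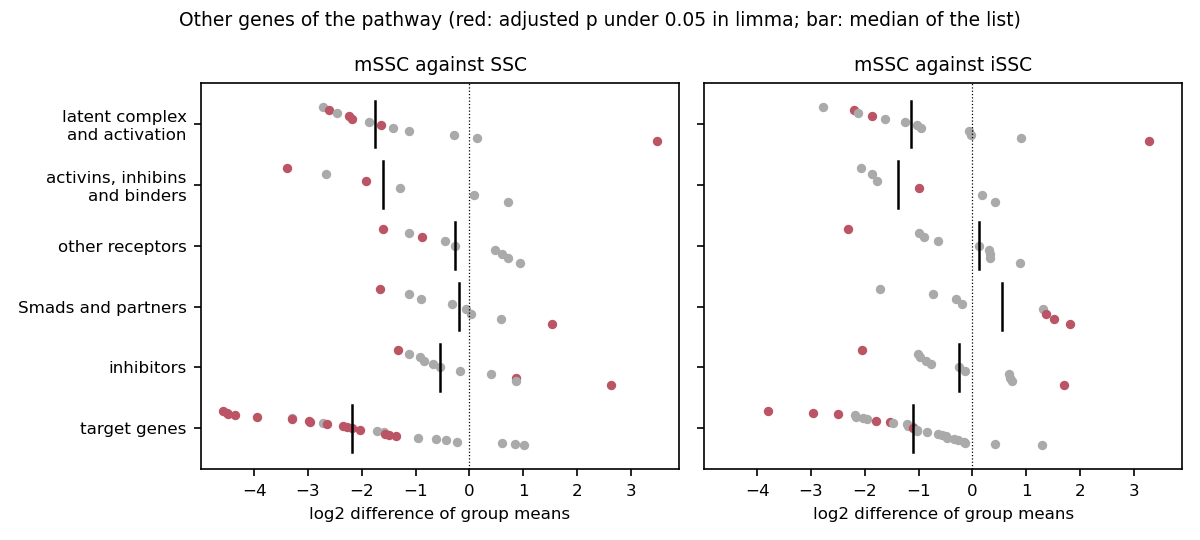
Difference of group means (log2) of each further gene of the pathway in 6 lists, mSSC minus SSC on the left and mSSC minus iSSC on the right, red where called, with a bar at the list median. The target genes have a median of -2.18 against SSC, and Ltbp4, at 3.49, is the red point farthest to the right.

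The genes whose profile over the 6 arrays was most like each member were sought among 12029 genes above the median of all values, by the root mean square difference of centred log2 values. Tgfbi was closest to Nab1 (0.08, Pearson's r = 0.997 over 6 arrays), Olfml3 (0.15) and Asap1 (0.16). Tgfb1 was closest to Podxl2 (0.18), Stx2 and Rgl1, and Tgfb2 to Mxra7 (0.14), Slc30a4 and Ngly1. Tgfb3 was closest to Evi2a (0.23), Hoxc8 and Plxnc1, and Tgfbr3 to Anxa3 (0.17), Lhfp and Bcl6. Tgfbr1 had 56 genes within 0.3, with 4932438A13Rik (0.14), Rb1 and Atp2b1 the nearest. Tgfbr2 and Inhba had none within 0.3, and their nearest were Cdk14 (0.34), Bmper and Rhoj, and Fam184b (0.31), Meg3 and Fryl. These are descriptions of 6 points that share 3 groups.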

How the data were processed

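The authors' deposited values are log2 signals made with RMA, per the submitters' processing notes, which name no version. RMA removes background, gives all arrays 1 distribution and summarises each probe set. Per the labels, 10 µg of total RNA was amplified and labelled with Ovation kits. No further normalization or filter on low values was applied, and 0 columns were left out.

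The probe table used here gave 34958 of 45101 probe sets exactly 1 symbol and 932 several, and did not list 9211. Matching by gene identifier to RefSeq (GRCm38.p6) updated 0 symbols. The tests were those of limma 3.58.1 (R 4.3.3): group means over all 6 arrays, moderated variances and 2-sided p-values, with the code tested on simulated data. Single probe sets were tested without 64 control sets. Named genes were the 8 members, the called genes and the 4 smallest p of each pathway list, and the 3 nearest profiles of a member. Members and lists were chosen with earlier results of these data known. Lrrc32, Fbn1, Ctgf and Spp1, which the lists held, have no value here, and some other listed items are not reported here. The settings tried were 17, among them leaving out each array, where the lone array left in a state takes its spread from the rest. Leaving out an array of the state not compared gives the same fit as only the 4 arrays compared.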

Additional observations from a re-analysis of the deposited data

How the results depend on the processing

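Of the 8 members, 7 were called between mSSC and SSC, 1 between iSSC and SSC and 3 between mSSC and iSSC. The term for the replicate number (replicate block) left 7 and 3 and took the iSSC count to 0 (limma; 3 with an unadjusted p under 0.05). Across genes the deviations of same-numbered arrays had correlations of 0.07 to 0.17 between states, and the labels give no pairing. An unmoderated test called 0 in each comparison, with 7, 1 and 3 at an unadjusted p under 0.05, and a minimum change of 2-fold in limma also called 0, with 6, 1 and 3. With the second-ranked probe set, which 7 members have, the counts were 1, 0 and 0 (limma; 2, 1 and 1 unadjusted). For iSSC against SSC the count was 2 with only the 4 arrays compared, and 0 with arrays centred on their median or with the mean of all probe sets (limma; 3 and 2 unadjusted). The mean of all probe sets also left 5 calls in mSSC against SSC, without Tgfbr1 and Tgfbr3. Leaving out each array gave 4 to 7 calls in mSSC against SSC, 0 to 2 in iSSC against SSC (2 to 5 unadjusted) and 0 to 4 in mSSC against iSSC (3 to 6 unadjusted). The limits lie in 2 arrays a state.

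Signs turned as follows, and the cause was not tested. In iSSC against SSC, Tgfbr3 was at 0.054 and 0.065 with arrays centred on the median and the 75th percentile, 0.55 with the mean of probe sets, 1.11 with the second-ranked probe set, and -0.34 to 0.31 with 1 array left out. Tgfbr2 was at 0.012 with the mean of probe sets. With the second-ranked probe set Tgfbr2 was at 0.55, Tgfb1 at 0.25, Inhba at 0.49 and Tgfbi at 0.030. With 1 array left out Tgfb1 was at -0.92 to 0.23. In mSSC against SSC the second-ranked probe set was at 0.16 for Inhba, 0.37 for Smurf1 and 0.040 for Acvr2a. In mSSC against iSSC it was at -1.40 for Skil, 0.29 for Ltbp1 and -0.62 for Wwtr1. With 1 array left out Inhba was at -1.23 to 1.06 there and Tgfbr1 at -0.038 to 0.34.

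Over all genes, in the same order of comparisons, 3425, 381 and 3117 were called. An unmoderated test called 14, 2 and 26, and a minimum change of 2-fold 514, 0 and 483. Centring on the 75th percentile moved the median of all genes in mSSC against SSC from 0.08 to 0.21. In iSSC against SSC 29 genes were called with the mean of probe sets, 148 with the replicate block and 0 without SSC replicate 1 or either iSSC array. In mSSC against SSC 1966 were called with the 4 arrays compared or without either iSSC array, 2146 without SSC replicate 1 and 2116 without mSSC replicate 1. In mSSC against iSSC the counts were 604 and 771 without iSSC replicates 1 and 2, and 1954 without mSSC replicate 1.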
